A study of Mus musculus with 6 samples.

Results

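The 37 genes described here carry glucose and lactate through glycolysis or answer to low oxygen. They were taken by name from a list. It held transporters, glycolytic enzymes, switches of glycolytic flux, hypoxia-inducible factors (HIFs) with their oxygen sensors, and further hypoxia response genes. The rule used names and no measured value, but the list was made with earlier results of these data known. All 37 were among the 24063 gene symbols of the deposited tables, and all 37 passed the filter on low counts that left 16336 genes for testing. RNA sequencing compared 3 SA tumors with 3 WT penises, all from mice aged 5 months. SA mice carry PB-Cre+ together with floxed (L/L) alleles of both Smad4 and Apc, and their penile tumors arose spontaneously, with no carcinogen given. WT samples are normal penile epithelium of wild-type C57BL/6 mice, which carry none of these alleles. The Cre is under an androgen-responsive probasin promoter that is best known from the prostate, and no library came from mice with Cre alone or with only one of the floxed genes, so the effects of the alleles, of the tumor state and of strain background cannot be told apart. RNA came from tumors in SA mice and from penile epithelium in WT mice, with no sorting of cells described. Fewer cells of a type and less RNA per cell therefore cannot be told apart either.

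Glycolysis splits glucose into triose phosphates and oxidizes these to pyruvate, which lactate dehydrogenase can reduce to lactate for export by monocarboxylate transporters. Most steps are run by several isozymes, encoded by different genes and used in different tissues. When oxygen is low, the prolyl hydroxylases encoded by the Egln genes stop marking HIF alpha subunits for degradation, and the stabilized factor binds short DNA elements near glycolytic, angiogenic and matrix genes, among them Egln3 and Egln1 themselves, which thereby dampen the response. HIF alpha subunits are mainly controlled as proteins, a layer that RNA sequencing does not measure. In stratified squamous epithelia, the layers farthest from the vessels are normally poor in oxygen.

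The core of the element bound by HIF is ACGTG or GCGTG, read as CACGT or CACGC on the other strand. Promoter windows of 250 bases directly upstream of an annotated start were available from RefSeq (GRCm38.p6) for 34 of the 37 genes, all except Slc2a3, Epas1 and Ndrg1. Either form, on either strand, was found in at least one window of 30 of these 34 genes (88.2%), against 11226 of all 27025 genes with windows (41.5%). Genes with several starts had several chances, and members had between 1 and 4 windows. The set of all genes was not limited to the genes tested here, nor matched for base composition. The shares in this paragraph therefore do not measure an enrichment in the members. The narrower form ACGTG or CACGT was present in 20 of the 34 (58.8%) and in 18.5% of all genes. The palindrome CACGTG, which overlaps both and is also the E-box of other factors, was present in 6 of the 34 (17.6%) and in 6.86% of all genes. Windows of 4 genes whose RNA differed between tumor and normal tissue are shown because they carry the same core with opposite directions of change. Hk2 (chr6:82774455-82774704, minus strand) and Ero1l (chr14:45318573-45318822, minus strand) were higher in SA tumors, whereas Egln3 (chr12:54203875-54204124, minus strand) and P4ha2 (chr11:54100674-54100923, plus strand) were lower. Each window runs 5′ to 3′ in the direction of transcription and ends at the base before the start, with matches to the core in capitals.
Hk2: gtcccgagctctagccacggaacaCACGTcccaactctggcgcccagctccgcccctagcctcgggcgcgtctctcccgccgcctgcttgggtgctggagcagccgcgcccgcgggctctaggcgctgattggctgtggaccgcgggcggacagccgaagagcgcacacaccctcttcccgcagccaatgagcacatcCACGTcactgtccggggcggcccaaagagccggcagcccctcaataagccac
Ero1l: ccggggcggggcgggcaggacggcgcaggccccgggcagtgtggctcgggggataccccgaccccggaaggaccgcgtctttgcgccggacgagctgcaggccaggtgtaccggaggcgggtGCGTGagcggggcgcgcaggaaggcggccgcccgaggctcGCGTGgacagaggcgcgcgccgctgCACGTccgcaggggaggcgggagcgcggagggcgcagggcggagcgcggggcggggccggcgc
Egln3: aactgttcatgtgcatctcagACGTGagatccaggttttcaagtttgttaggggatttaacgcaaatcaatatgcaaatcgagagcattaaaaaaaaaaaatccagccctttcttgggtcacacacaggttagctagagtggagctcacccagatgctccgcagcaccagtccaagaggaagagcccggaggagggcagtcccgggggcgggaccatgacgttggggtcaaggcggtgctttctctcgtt
P4ha2: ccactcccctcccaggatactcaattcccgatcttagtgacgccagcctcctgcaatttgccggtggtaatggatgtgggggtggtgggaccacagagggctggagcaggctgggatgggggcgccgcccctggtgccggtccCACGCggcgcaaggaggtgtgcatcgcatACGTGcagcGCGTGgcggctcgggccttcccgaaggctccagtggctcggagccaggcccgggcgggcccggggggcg
The Hk2 window held 2 matches, Ero1l and P4ha2 held 3 each, and Egln3 held 1. All 5 members with a window that were higher in tumors and all 8 that were lower held the core, as did 17 of the 21 members that did not pass the test. A match describes letters in this window and does not show binding.

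Libraries held between 23828283 and 110509147 counts over gene rows, the largest being SA tumor replicate 3, which was 4.42-fold deeper than the median of the others. The depth put the limit that 3 counts allow at 0.0244 to 0.137 CPM (counts scaled to a common library size). CPM are here corrected by trimmed mean of M values (TMM) factors, which were 1.10 to 1.11 in SA tumors and 0.884 to 0.921 in WT penises. Smad4 counts were 1.71-fold lower in SA tumors (log2 fold change -0.77, SE 0.13, edgeR adjusted p = 0.00114), whereas Apc counts were higher (log2 fold change 1.43, SE 0.17, edgeR adjusted p = 0.000185). The values cover the whole gene and therefore do not check the floxed exons of either gene. Cell type markers differed between the groups. Of the granulocyte list, 5 of 5 markers were higher in tumors, with a summed level of 1426 to 2488 CPM against 56.6 to 120 CPM, and 1 of the 5 was under 1 CPM in WT penises. Of the smooth muscle list, 6 of 6 were lower, at 88.6 to 193 CPM against 1580 to 2083 CPM. Of the stratified epithelium list, 4 of 6 were lower, at 14208 to 16389 CPM against 28321 to 31118 CPM, and none of the 6 was under 1 CPM in either group. Fibroblast markers summed to 1285 to 4763 CPM in tumors and 6073 to 6355 CPM in WT penises, with 1 of 6 past the test. Endothelial markers (2 of 6 lower) summed to 157 to 265 against 292 to 340 CPM, and macrophage markers (0 of 5 past the test) overlapped, at 110 to 264 against 168 to 235 CPM. The part of these differences in the results below was not tested.

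Glycolysis and hypoxia genes did not move as one block in SA tumors. At an edgeR adjusted p under 0.01, 6 of the 37 were higher in SA tumors (16.2%, where 20.1% of all genes tested were) and 9 were lower (24.3%, against 17.5% of all genes tested), while 22 did not pass. None reached a log2 fold change of 2 in either direction, a size that 9.41% of all genes tested reached upward and 3.59% downward. The log2 fold changes ran from -1.11 to 1.70 with a median of 0.14, beside 0.03 over all genes tested, and 20 were positive. In 9 of the 37 genes every tumor was above every WT penis (24.3%, against 32.7% of all genes tested), and in 10 every tumor was below (27%, against 30.7%). The shares called lay near those over all genes tested, so the counts by themselves set the members apart in neither direction. The genes that did move included 2 pairs of related genes that went in opposite directions, Hk2 up and Hk1 down, and Pfkfb3 up and Pfkfb4 down.

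**Figure D1:**
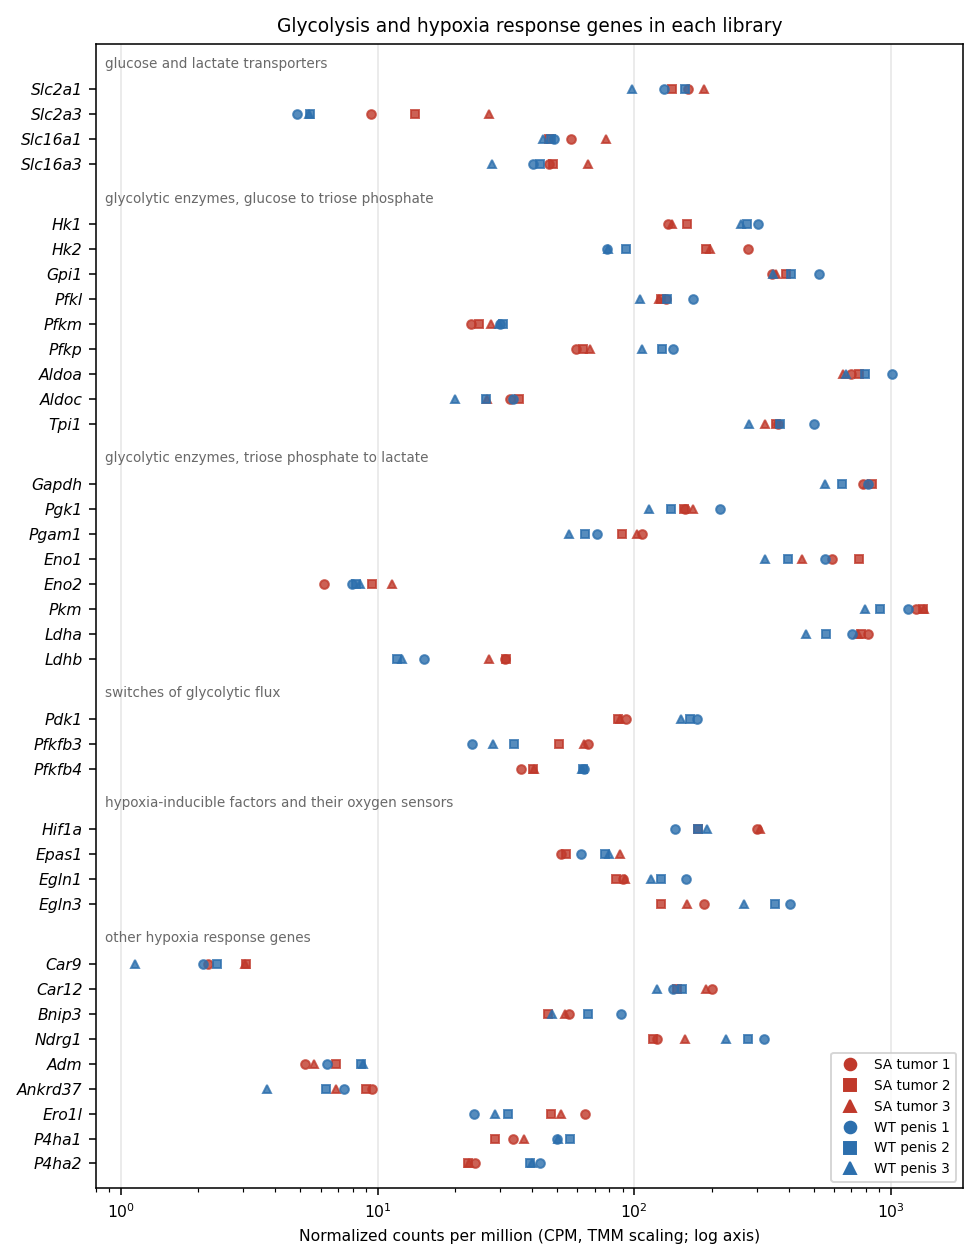
Normalized CPM (log axis) of each of the 37 genes in the 3 SA tumors (red) and the 3 WT penises (blue), with 1 point per library and genes ordered by role. Red and blue points are apart for Hk2, Hk1, Pfkp, Ldhb, Pdk1, Pfkfb3 and Pfkfb4 and overlap for Gpi1, Aldoc, Tpi1 and Pgk1, and the WT penises are spread widely in many of the enzymes.

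Among transporters, the change was in the glucose transporter of lower level. Slc2a3 (GLUT3, a high-affinity glucose transporter; chromosome 6, 122727809 to 122802363) had 9.44, 13.9 and 27.2 CPM in the 3 SA tumors and 4.84, 5.44 and 5.42 CPM in the 3 WT penises. Every tumor was above every WT penis, and the tumors were spread over a 2.88-fold range. Its fitted difference was 3.25-fold (log2 fold change 1.70, SE 0.37, edgeR adjusted p = 0.0055). The call was lost without SA tumor replicate 2 (edgeR adjusted p = 0.0117) and without WT penis replicate 1, 2 or 3 (edgeR adjusted p = 0.0325, 0.0251 and 0.027), and with limma-voom in place of edgeR (adjusted p = 0.018). Slc2a1 (GLUT1, the main glucose transporter of many epithelia) had 162, 140 and 186 CPM in tumors and 131, 158 and 98.3 CPM in WT penises. These groups overlapped (log2 fold change 0.34, 95% interval -0.07 to 0.75, edgeR adjusted p = 0.144). Per transcript length, measured in deposited TPM, which weigh counts by transcript length, Slc2a3 made up 6.13% ± 2.52 (SD, n = 3) of the summed Slc2a1 and Slc2a3 level in tumors and 2.67% ± 0.689 (SD, n = 3) in WT penises. Slc2a1 thus remained the bulk of this pair in all 6 libraries.

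The lactate transporters Slc16a1 (MCT1) and Slc16a3 (MCT4, associated with lactate export from glycolytic cells) did not pass the test. Slc16a3 had 46.5, 48.1 and 66.0 CPM in tumors and 40.4, 43.0 and 28.0 CPM in WT penises. The groups did not overlap, but the difference was small against the spread (log2 fold change 0.53, SE 0.19, edgeR adjusted p = 0.0476). Slc16a1 reached 77.6 CPM in SA tumor replicate 3, while the 2 other tumors, at 56.7 and 46.4 CPM, lay above and within the WT range of 44.0 to 48.6 CPM (log2 fold change 0.37, edgeR adjusted p = 0.108).

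Hexokinase, which commits glucose to the cell by phosphorylation, showed an exchange of isozymes. Hk2 (chromosome 6, 82725025 to 82774454), the inducible isozyme prominent in many tumors and in muscle, had 277, 190 and 198 CPM in tumors and 78.0, 93.1 and 78.8 CPM in WT penises. Every tumor was above every WT penis, with a 2.66-fold difference (log2 fold change 1.41, SE 0.16, edgeR adjusted p = 0.000154). Hk1 (chromosome 10, 62268855 to 62379920), the isozyme found in most tissues, had 135, 160 and 140 CPM in tumors and 304, 275 and 260 CPM in WT penises. Here every tumor was below, by 1.92-fold (log2 fold change -0.94, SE 0.11, edgeR adjusted p = 0.00016). Per length, Hk2 made up 60.7, 47.2 and 51.5% of the summed Hk1 and Hk2 TPM in tumors and 16.2, 20.4 and 18.6% in WT penises, that is 53.1% ± 6.89 against 18.4% ± 2.07 (SD, n = 3 each). Hk1 was therefore the larger of the pair in every WT penis, while the pair was near parity in tumors.

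Phosphofructokinase, the main control point of the pathway, is built from the products of Pfkl, Pfkm and Pfkp. Pfkp (chromosome 13, 6579874 to 6649060), the platelet-type isozyme, had 59.5, 63.2 and 67.2 CPM in tumors and 141, 128 and 107 CPM in WT penises. It was 1.98-fold lower in tumors with no overlap (log2 fold change -0.99, SE 0.12, edgeR adjusted p = 0.000226). Pfkl, the liver-type isozyme, had 132, 127 and 125 CPM against 169, 135 and 106 CPM and did not pass (log2 fold change -0.09, edgeR adjusted p = 0.657). Pfkm, the muscle type, lay lower in every tumor, at 23.0 to 27.7 CPM against 29.8 to 30.9 CPM, without passing the test (log2 fold change -0.26, edgeR adjusted p = 0.0724). Of the summed TPM of the family, Pfkl took 58.3% ± 2.46 in tumors and 46.4% ± 3.28 in WT penises and Pfkp 26.6% ± 1.28 and 39.7% ± 1.14, while the Pfkm shares overlapped (SD, n = 3 each).

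The remaining enzymes between glucose and triose phosphate did not pass the test. Gpi1 (glucose-6-phosphate isomerase) had 345, 389 and 357 CPM in tumors and 522, 409 and 348 CPM in WT penises (log2 fold change -0.23, edgeR adjusted p = 0.235). Aldoa, the major aldolase, had 698, 752 and 652 CPM against 1012, 791 and 669 CPM (log2 fold change -0.23, edgeR adjusted p = 0.241). Tpi1 (triose phosphate isomerase) had 363, 356 and 323 CPM against 502, 369 and 280 CPM (log2 fold change -0.14, edgeR adjusted p = 0.562). In each of these, tumors fell inside or at the edge of a wide WT range whose top was WT penis replicate 1. Aldoc, a minor aldolase here, had 32.9, 35.7 and 26.7 CPM against 33.7, 26.5 and 20.05 CPM (log2 fold change 0.24, edgeR adjusted p = 0.325). Aldoa made up 96.0% ± 0.320 (SD, n = 3) of the summed aldolase TPM in tumors and 97.1% ± 0.176 (SD, n = 3) in WT penises.

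**Figure D2:**
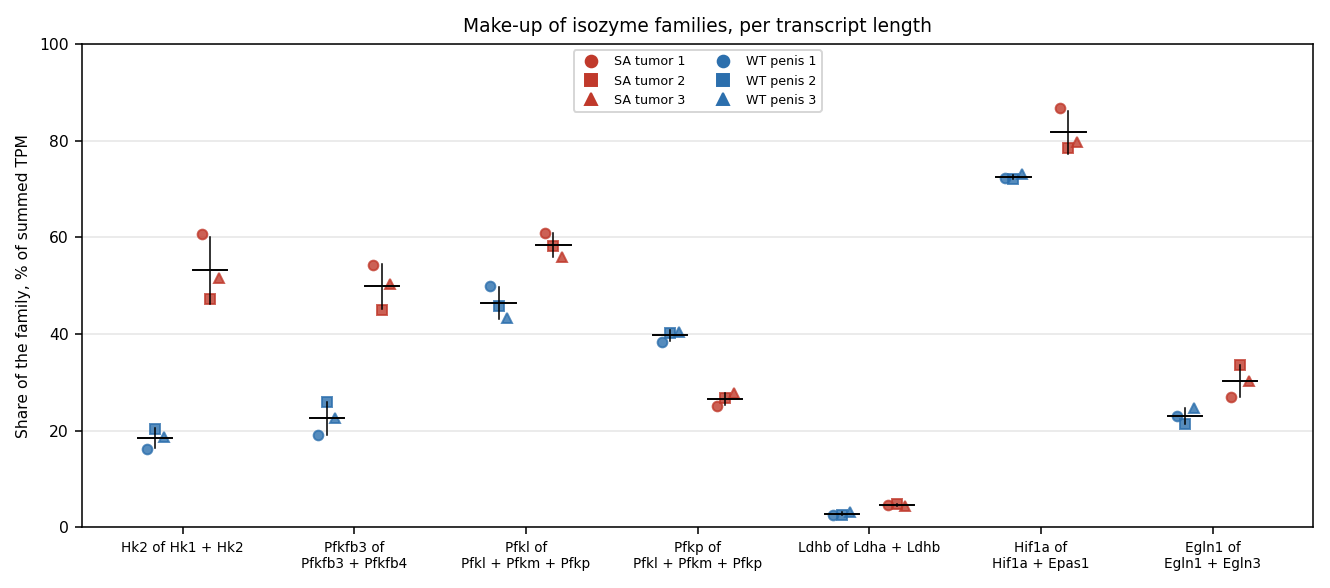
Share of each named gene in the summed deposited TPM of its isozyme family (percent), with 1 point per library, the mean as a horizontal bar and the SD as a vertical bar (n = 3 per group). Hk2 takes 53.1% of its pair in SA tumors (red) and 18.4% in WT penises (blue), and Pfkfb3 takes 49.9% and 22.5%. The 7 columns are a selection in which no pair of red and blue sets overlaps. Shares that overlapped between the groups are not drawn. These were Pfkm, the enolases, the lactate transporters, the collagen prolyl hydroxylases and the carbonic anhydrases.

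From triose phosphate to lactate, all 8 enzymes had positive log2 fold changes, as did 8442 of all 16336 genes tested, and 2 passed the test (25%, near the 20.1% higher over all genes tested). Pgam1 (phosphoglycerate mutase; chromosome 19, 41911871 to 41918665) had 107, 89.2 and 103 CPM in tumors and 71.4, 64.1 and 55.6 CPM in WT penises. It was 1.56-fold higher without overlap (log2 fold change 0.64, SE 0.12, edgeR adjusted p = 0.00239), a call that was lost without WT penis replicate 2 or 3 (edgeR adjusted p = 0.0138 and 0.0112). Ldhb (chromosome 6, 142490249 to 142507957), the heart-type lactate dehydrogenase subunit, which favors the conversion of lactate to pyruvate, had 31.3, 31.5 and 27.0 CPM against 15.1, 11.9 and 12.4 CPM. It was 2.28-fold higher in tumors (log2 fold change 1.19, SE 0.14, edgeR adjusted p = 0.000163). Ldha, the subunit that favors lactate formation, had 811, 766 and 744 CPM against 704, 558 and 468 CPM. Its tumors were all above its WT penises, yet the difference did not pass (log2 fold change 0.42, SE 0.15, edgeR adjusted p = 0.0428). It passed without WT penis replicate 1 (log2 fold change 0.58, edgeR adjusted p = 0.00693) and with library totals alone (log2 fold change 0.71, edgeR adjusted p = 0.00296). Per length, Ldha remained dominant, since Ldhb made up 4.64% ± 0.274 of the summed Ldha and Ldhb TPM in tumors and 2.82% ± 0.350 for WT penises (SD, n = 3 each).

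Pkm, which encodes pyruvate kinase M, had 1254, 1328 and 1341 CPM in tumors and 1162, 908 and 790 CPM in WT penises. Again every tumor was above every WT penis without a call (log2 fold change 0.46, SE 0.15, edgeR adjusted p = 0.0309), and again the difference passed without WT penis replicate 1 (log2 fold change 0.61, edgeR adjusted p = 0.005) and with library totals alone (log2 fold change 0.75, edgeR adjusted p = 0.0022). Pkm yields the M1 and M2 enzymes by use of one of 2 alternative exons of 167 bases each. The tables hold 2 Pkm rows, NM_011099 and NM_001253883, whose GENCODE models place this exon at chromosome 9, 59675568 to 59675734 and 59675029 to 59675195. Most reads fell in sequence that both rows share. The count of NM_011099 exceeded that of the other row by 2341, 2975 and 11507 in tumors and by 1613, 1524 and 1000 in WT penises. This excess was 7.11% ± 0.269 of the NM_011099 count in tumors and 5.88% ± 0.350 for WT penises (SD, n = 3 each), with no overlap. The GENCODE models also differ at their ends. The deposited values imply a length ratio of 1 between the 2 rows in every library, so the row lengths show no such difference. Whether the excess measures exon use alone was not tested.

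Gapdh, a common reference gene for RNA levels, had 781, 841 and 809 CPM in tumors and 816, 645 and 553 CPM in WT penises (log2 fold change 0.27, 95% interval -0.07 to 0.61, edgeR adjusted p = 0.154). Pgk1 (phosphoglycerate kinase) had 158, 155 and 169 CPM against 216, 139 and 114 CPM (log2 fold change 0.04, edgeR adjusted p = 0.878). Eno1, the enolase of most tissues, had 590, 752 and 448 CPM against 552, 398 and 324 CPM (log2 fold change 0.49, edgeR adjusted p = 0.118). In none of these 3 genes did every tumor exceed WT penis replicate 1. Eno1 counts are uncertain, because a near-identical gene, Eno1b, had almost the same counts in 4 libraries and up to 120% of the Eno1 count in the others. With both rows summed, a choice made after seeing the data, the log2 fold change was 0.55 (edgeR adjusted p = 0.0657). Eno2, the neuronal enolase, was at 6.17 to 11.4 CPM in tumors and 7.91 to 8.52 CPM in WT penises (log2 fold change 0.14, edgeR adjusted p = 0.619).

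In the glycolytic enzymes the WT penises differed among themselves more than the tumors did. Over all genes, Pearson correlations of log2 CPM between libraries were 0.986 to 0.992 within WT penises and 0.971 to 0.982 within SA tumors. These run across genes, which are not independent replicates, and are a measure unlike the SD per gene used for the enzymes. That SD was not taken over all genes, so the enzyme counts that follow have no background beside them. Of the 17 enzymes, WT penis replicate 1 was the highest WT library in 14 and WT penis replicate 3 was the lowest in 14. The median SD of log2 CPM was 0.28 in WT penises and 0.10 in SA tumors, and WT was the more variable group in 13 of the 17. The CPM of the 17 enzymes summed to 5804, 6070 and 5570 in tumors (5815 ± 250, SD, n = 3) and 6335, 4988 and 4224 in WT penises (5182 ± 1069, SD, n = 3), so the tumors lay within the WT range. In deposited TPM, which correct for length and are relative to each library's own total, the sums were 5391, 5437 and 5267 in tumors and 4220, 3580 and 3118 in WT penises. On that scale the groups did not overlap, and the ratio of means was 1.47 instead of 1.12. Summed granulocyte markers also ran from 120 over 78.9 to 56.6 CPM in WT penis replicates 1, 2 and 3. Most of that sum was S100a8 (63.5, 41.9 and 32.8 CPM) and S100a9 (53.0, 33.0 and 22.1 CPM). Cxcr2 (1.81, 2.20 and 0.729 CPM) and Csf3r (1.76, 1.77 and 1.05 CPM) did not fall in this order, and Retnlg was at most 0.0904 CPM. Red blood cell markers (0 of 6 past the test between groups) ran from 334 over 286 to 215 CPM. Hba-a1 equaled Hba-a2 and Hbb-b1 equaled Hbb-bs in every library, so this sum held the same values more than 1 time. Alas2 (7.59, 8.91 and 6.42 CPM) did not fall in this order. Summed stratified epithelium markers (31118, 29155 and 28321 CPM) and endothelial markers (340, 325 and 292 CPM) fell in the same order. Sums of fibroblast, smooth muscle, skeletal muscle, macrophage, adipocyte, bone and cartilage, and nerve markers did not. The part of these markers in the spread of the enzymes was not tested.

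**Figure D3:**
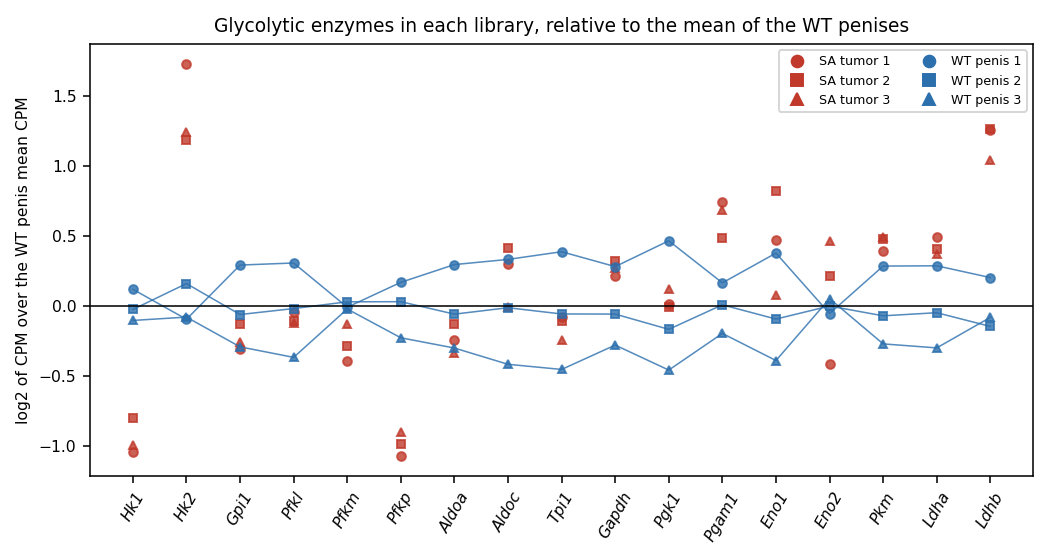
CPM of the 17 glycolytic enzymes in each library as log2 of the ratio to the mean of the WT penises, with blue lines joining the genes of one WT penis and red points for the SA tumors. WT penis replicate 1 is above the other WT libraries in 14 genes, the 3 tumors lie between WT libraries in genes such as Pfkl and Pgk1, and genes such as Hk2, Ldhb, Pgam1, Hk1 and Pfkp lie outside the WT range in all 3 tumors.

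All 3 switches of glycolytic flux passed the test, 1 higher and 2 lower. Of all genes tested, 20.1% were higher and 17.5% lower, and 3 genes are too few to set against these shares. Pfkfb3 and Pfkfb4 encode enzymes that make and remove fructose 2,6-bisphosphate, the activator of phosphofructokinase. Pfkfb3 (chromosome 2, 11471430 to 11554071), whose product strongly favors synthesis, had 66.0, 50.9 and 63.8 CPM in tumors and 23.2, 33.9 and 28.2 CPM in WT penises. It was 2.11-fold higher (log2 fold change 1.08, SE 0.16, edgeR adjusted p = 0.000693). Pfkfb4 (chromosome 9, 108988272 to 109032236) had 36.0, 40.4 and 40.7 CPM in tumors and 63.7, 63.1 and 62.8 CPM in WT penises. It was 1.62-fold lower (log2 fold change -0.69, SE 0.09, edgeR adjusted p = 0.000386). Both groups were well separated in each gene. Pfkfb3 accounted for 54.3, 45.0 and 50.4% of the summed TPM of the pair in tumors and for 19.1, 25.8 and 22.6% in WT penises.

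Pdk1 (chromosome 2, 71873215 to 71903858) encodes a pyruvate dehydrogenase kinase that inhibits the conversion of pyruvate to acetyl-CoA in mitochondria and is a well-known HIF target. It had 92.5, 86.2 and 88.2 CPM in tumors and 176, 165 and 152 CPM in WT penises. Every tumor was below every WT penis, by 1.85-fold (log2 fold change -0.88, SE 0.09, edgeR adjusted p = 0.000107).

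Of the HIF alpha subunits, neither passed the test. Hif1a had 301, 176 and 309 CPM in tumors and 144, 177 and 192 CPM in WT penises. SA tumor replicate 2 lay within the WT range and the 2 other tumors lay above it (log2 fold change 0.62, SE 0.22, edgeR adjusted p = 0.0431). Without that tumor the difference passed (log2 fold change 0.83, edgeR adjusted p = 0.00279). Epas1, which encodes HIF-2 alpha, had 51.7, 54.2 and 88.1 CPM against 62.1, 77.0 and 79.9 CPM (log2 fold change -0.17, edgeR adjusted p = 0.521). Of the summed TPM of both genes, Hif1a took 86.8, 78.5 and 79.8% in tumors and 72.3, 72.1 and 73.0% in WT penises.

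Both prolyl hydroxylase genes of the list were lower in tumors. Egln3 (PHD3; chromosome 12, 54178981 to 54203874) had 186, 128 and 161 CPM in tumors and 405, 352 and 267 CPM in WT penises. It was 2.16-fold lower with no overlap (log2 fold change -1.11, SE 0.19, edgeR adjusted p = 0.00125), the lowest log2 fold change of the 37 genes. Egln1 (PHD2, the main oxygen sensor of HIF-1; chromosome 8, 124908587 to 124949254) had 90.1, 85.0 and 92.0 CPM against 159, 127 and 116 CPM. It was 1.5-fold lower (log2 fold change -0.59, SE 0.13, edgeR adjusted p = 0.00482), but the call was lost without SA tumor replicate 1 or 2 (edgeR adjusted p = 0.0107 and 0.0203), without WT penis replicate 2 (edgeR adjusted p = 0.0122), and when counts were scaled by upper quartile (edgeR adjusted p = 0.0102) or library totals alone (log2 fold change -0.30, edgeR adjusted p = 0.0601). Egln1 made up 30.3% ± 3.36 of their summed TPM in tumors and 23.1% ± 1.66 for WT penises (SD, n = 3 each).

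Other hypoxia response genes were split. Ndrg1 (chromosome 15, 66929318 to 66969641), a differentiation- and stress-responsive gene induced by hypoxia, had 122, 118 and 158 CPM in tumors and 320, 278 and 228 CPM in WT penises. It was 2.07-fold lower (log2 fold change -1.05, SE 0.16, edgeR adjusted p = 0.000714). The collagen prolyl 4-hydroxylase subunits P4ha1 (chromosome 10, 59323197 to 59373304) and P4ha2 (chromosome 11, 54100924 to 54131668), which are needed for stable collagen triple helices, were lower as well. P4ha1 had 33.7, 28.5 and 37.1 CPM against 50, 56.3 and 50.3 CPM (log2 fold change -0.66, SE 0.12, edgeR adjusted p = 0.00222), and its call was lost without WT penis replicate 2 (edgeR adjusted p = 0.0114) and with library totals alone (log2 fold change -0.37, edgeR adjusted p = 0.0349). P4ha2 had 24.0, 22.6 and 22.8 CPM against 43.0, 39.1 and 40.1 CPM (log2 fold change -0.82, SE 0.10, edgeR adjusted p = 0.000219). In all 3 genes every tumor was below every WT penis. Summed markers of fibroblasts, which make most collagen, also lay below the WT range in tumors, as given above. Of these markers only Dcn passed the test, and every tumor lay below every WT penis in 3 of the 6. Pdgfra went the other way without passing (log2 fold change 1.09, edgeR adjusted p = 0.0604). The part of fibroblasts in these results was not tested.

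Ero1l (Ero1a in RefSeq; chromosome 14, 45283087 to 45318572), the oxidase that drives disulfide formation in the endoplasmic reticulum, went the other way. It had 64.2, 47.3 and 51.9 CPM in tumors and 23.7, 32.2 and 28.7 CPM in WT penises. Every tumor was above every WT penis, by 1.93-fold (log2 fold change 0.95, SE 0.16, edgeR adjusted p = 0.00113).

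The 5 remaining hypoxia response genes did not pass the test. Car9 (carbonic anhydrase 9) was the lowest member per length in both groups and had 2.19, 3.08 and 3.05 CPM in tumors and 2.08, 2.37 and 1.14 CPM in WT penises. Its interval was wide (log2 fold change 0.57, 95% interval -0.16 to 1.30, edgeR adjusted p = 0.164). Car12, a related membrane-bound enzyme, had 200, 146 and 191 CPM against 141, 153 and 122 CPM (log2 fold change 0.37, edgeR adjusted p = 0.0567). Bnip3, a mitophagy receptor, had 55.8, 46.0 and 53.5 CPM against 88.4, 66.0 and 47.9 CPM (log2 fold change -0.38, edgeR adjusted p = 0.148). Adm (adrenomedullin, a vasodilator peptide) was at 5.20 to 6.85 CPM in tumors and 6.37 to 8.75 CPM in WT penises (log2 fold change -0.42, edgeR adjusted p = 0.104). Ankrd37 was at 6.85 to 9.48 against 3.69 to 7.37 CPM (log2 fold change 0.54, edgeR adjusted p = 0.121). The groups overlapped in all 5 genes, and these intervals leave room for changes in either direction in Car9, Bnip3, Adm and Ankrd37.

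**Figure D4:**
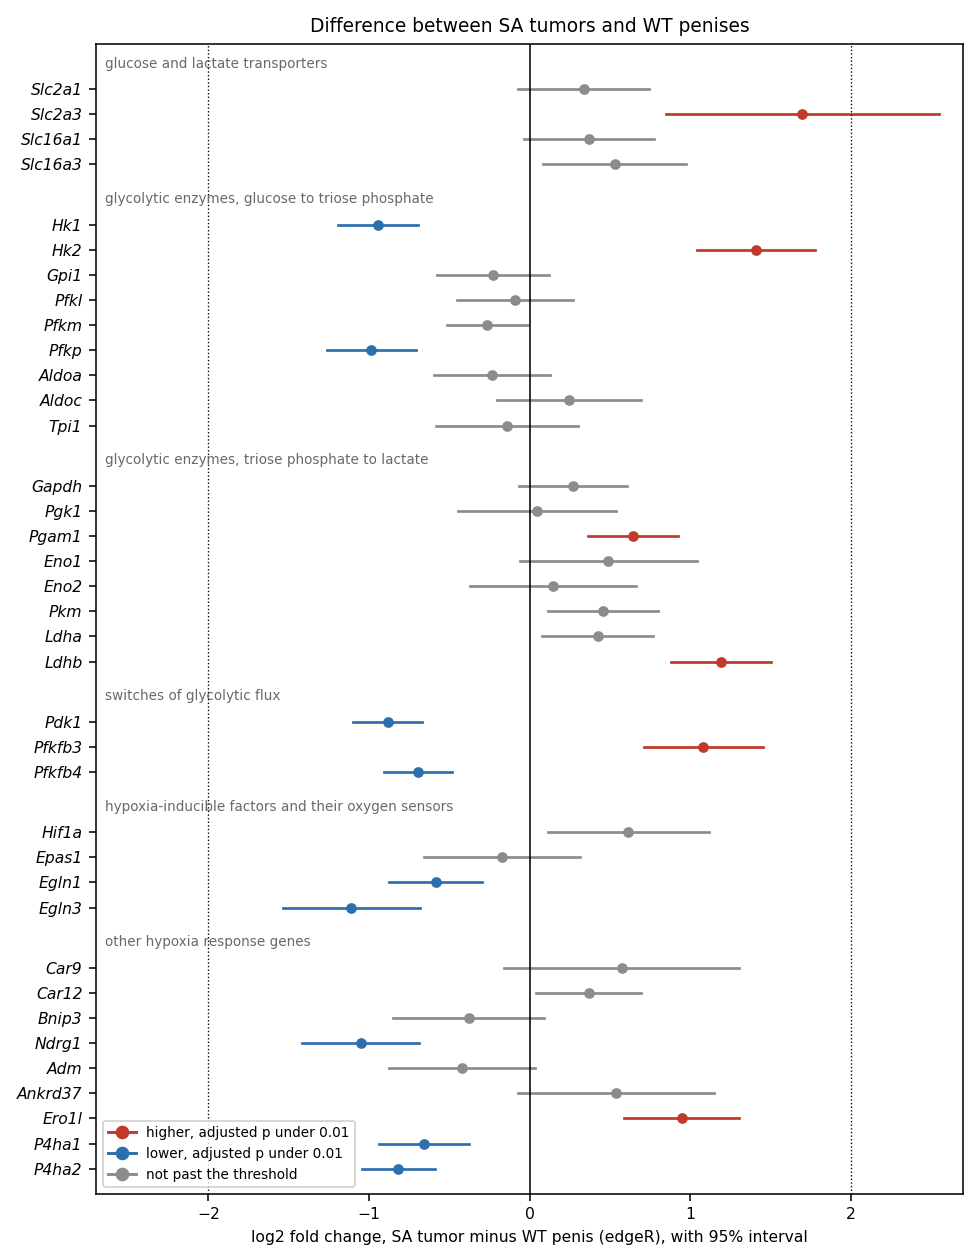
Log2 fold change (SA tumor minus WT penis, edgeR) of each of the 37 genes with its 95% interval, with red for higher and blue for lower at an adjusted p under 0.01, gray for genes that did not pass, and dotted lines at 2 and -2. The points run from -1.11 (Egln3) to 1.70 (Slc2a3), none lies beyond a dotted line, and both colors occur within the switches of flux and the hypoxia response genes.

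Per length, the order of the members was similar at the top in both groups. Gapdh had the highest mean level in tumors, with 1011 TPM, followed by Pkm with 954, Ldha with 846 and Aldoa with 782 TPM. In WT penises Aldoa came first with 706 TPM, ahead of Gapdh with 643, Pkm with 534 and Ldha with 483 TPM. Within each WT penis Aldoa was above Gapdh, at 815, 695 and 608 TPM against 735, 633 and 561 TPM. Within each tumor Gapdh was above Aldoa, at 982, 1012 and 1038 TPM against 786, 810 and 750 TPM. This change of order was not tested. Hk2 was in place 15 of the 37 in tumors and in place 24 in WT penises, and Ldhb in places 20 and 30. Together the members took 0.812% ± 0.00424 of gene-row counts in tumors and 0.632% ± 0.0974 for WT penises (SD, n = 3 each), with no overlap. In TMM-corrected CPM, by contrast, they summed to 7420, 7366 and 7299 in tumors and 8273, 6877 and 5828 in WT penises, so the tumors lay within the WT range.

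Genes around the members, from 6 wider lists, moved in both directions too. Of 96 tested, 19 were higher (19.8%, against 20.1% of all genes tested) and 22 lower (22.9%, against 17.5%), so these counts were near those over all genes, and the short lists that follow are to be read against the same shares. Among other glycolytic isozymes and transporters, 5 of 20 were higher and 4 lower. Among those past the test, here and in the lists that follow, the largest rises were in Bpgm (bisphosphoglycerate mutase; log2 fold change 1.35), Pfkfb1 (1.09) and Slc2a9 (a urate transporter; 1.04), and the largest falls in the fructose transporter Slc2a5 (-1.93), in Slc2a12 (-1.05) and in Pfkfb2 (-0.80). Around pyruvate entry into mitochondria, 3 of 13 were higher and 3 lower. The pyruvate dehydrogenase phosphatase Pdp2 rose (log2 fold change 2.31) while its relative Pdp1 fell (-1.44), and the kinase Pdk4 rose (0.84) where Pdk1 fell. Dlat, a subunit of the dehydrogenase, rose by a log2 fold change of 0.52, and Pcx (pyruvate carboxylase, -0.88) and Dld (-0.34) fell.

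In gluconeogenesis and glycogen metabolism, 4 of 13 tested genes were higher and 4 lower. Fbp1, the fructose-1,6-bisphosphatase that opposes phosphofructokinase, had 9.92, 14.9 and 5.36 CPM in tumors and 0.316, 0.367 and 0.273 CPM in WT penises (log2 fold change 4.94, edgeR adjusted p = 5.47e-05). Fbp2 (2.02), a related enzyme, rose too. The falls were largest in Pck1 (log2 fold change -3.75, with at most 0.149 CPM in tumors and 0.968 CPM in WT penises), Ppp1r3c (-2.83) and the muscle glycogen phosphorylase Pygm (-2.08). Smooth muscle markers were lower in the same comparison, as given above. Of 5 skeletal muscle markers tested, 1 was higher (Myh1), 1 was lower (Ckm) and 3 did not pass. The part of muscle cells in these falls was not tested. In the pentose phosphate pathway, G6pdx, its entry enzyme, was the 1 gene of 7 that passed (log2 fold change 0.43, edgeR adjusted p = 0.00951).

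Among other HIF subunits and regulators, 2 of 10 were higher and 3 lower. The third prolyl hydroxylase gene, Egln2, fell by 1.32 on the log2 scale, at 53.2, 73.4 and 68.3 CPM in tumors against 174, 155 and 157 CPM in WT penises. The factor-inhibiting hydroxylase Hif1an (-0.50) and the coactivator competitor Cited2 (-0.52) fell as well. Arnt2, a partner subunit, had a log2 fold change of 1.89, and Vhl, the ubiquitin ligase component that recognizes hydroxylated HIF, of 0.55. Of 33 further hypoxia-responsive genes, 4 were higher and 8 lower. The largest rises were in Stc1 (stanniocalcin; 2.50), Igfbp3 (1.55) and the collagen lysyl hydroxylase gene Plod2 (1.55), and the largest falls in Ndufa4l2 (-2.31), Edn1 (endothelin; -2.19) and Tmem45a (-1.46). Vegfa, the classical angiogenic HIF target, had 94.4, 77.4 and 107 CPM in tumors and 108, 117 and 77.5 CPM in WT penises and did not pass (log2 fold change -0.12, edgeR adjusted p = 0.601).

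**Figure D5:**
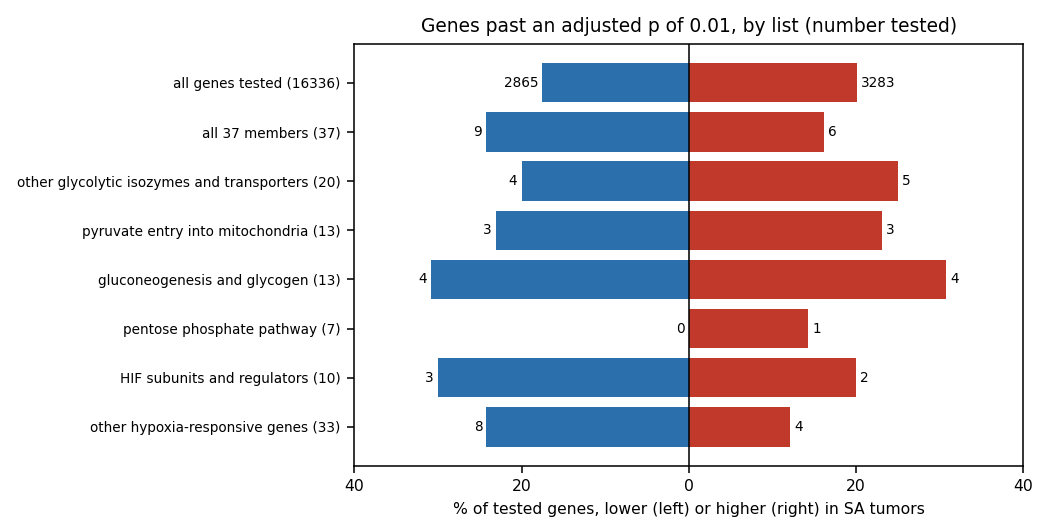
Percent of tested genes that were higher (red, right) or lower (blue, left) in SA tumors at an adjusted p under 0.01, for all genes, the 37 members and the 6 wider lists, with the number of genes at the end of each bar and the number tested beside the name. The members have 6 higher and 9 lower, and the bars extend to both sides in every list but the pentose phosphate pathway.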

How the data were processed

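Total RNA of 3 SA tumors and 3 WT penises was sequenced from stranded libraries as paired-end reads. According to the submitters' processing notes and the methods, TopHat was the authors' aligner, on genome build mm10, and HTSeq their counter. Versions and the strand setting of counting are not given in the sources used here. The deposited files give, per RefSeq transcript row, the read count and the FPKM and TPM values, which the authors derived from the counts. Rows of one gene share reads, so 1 row per symbol, the one with the highest mean count, stood for the gene (33068 rows, 24063 symbols). Near-identical genes can share counts.

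Counts were tested with edgeR 4.0.16 in R 4.3.3 (filterByExpr with a minimum count of 10 and a minimum total of 15, TMM, robust quasi-likelihood F-test, Benjamini-Hochberg over 16336 genes, adjusted p under 0.01). The deposited FPKM values entered no test, and deposited TPM values served for levels and shares per length, with no test. An exact permutation test of 3 against 3 samples cannot give a p under 0.1 and was not used. The methods speak of 3 SA mice and of WT mice, and count the 3 samples of each genotype as biological samples. Same-numbered samples did not deviate together, which with 3 samples a group does not settle whether they were paired. No pairing is described, and none was assumed. The limit of 3 counts covers counting error only.

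The members and all lists were chosen with earlier results of these data known. All 37 members are named, and of each wider list the counts and up to 3 genes that changed most upward and 3 downward. A gene that this rule would name is not reported here. Alternatives were other scalings, filters, transcript rows, DESeq2 1.42.0, limma-voom 3.58.1, thinning of the deepest library, the replicate number as a block, and leaving out each sample. The script for the tests was tested on simulated data.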

Additional observations from a re-analysis of the deposited data

How the results depend on the processing

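The count of higher members was 6 under 9 of the other settings that kept all samples and 5 with limma-voom, and became 11 when counts were scaled by library totals only, under which 5248 of all 16336 genes were higher, a scaling that raised the median log2 fold change of all genes to 0.31 and made 26 of the 37 member values positive. Slc16a3, Gapdh, Pkm, Ldha and Car12 were the members added. Leaving out 1 sample gave between 4 and 7 higher members. The count of lower members stayed between 7 and 9 under every alternative, and no member passed a log2 fold change of 2 under any of them. All 15 called members kept their direction throughout. With library totals, log2 fold changes turned positive for Gpi1 (0.0608), Pfkl (0.20), Pfkm (0.0222), Aldoa (0.0556), Tpi1 (0.15) and Epas1 (0.11), none of which passed. Leaving out 1 sample turned the sign of 4 members that did not pass, with ranges of -0.27 to 0.0808 for Pfkl, -0.35 to 0.0882 for Tpi1, -0.17 to 0.34 for Pgk1 and -0.0614 to 0.35 for Eno2. With the replicate block, 6 members were higher and 9 lower. Same-numbered samples correlated at -0.13, -0.10 and 0.02 in their deviations, which with 3 samples a group does not settle whether they were paired. With transcript rows summed, the difference in share fell to 26.3 percentage points for Hk2 and 18.9 for Pfkfb3; summing counts shared reads more than 1 time. Members at a few CPM, such as Car9, have wide intervals, and with 3 samples a group small differences, such as that of Gapdh, could not be settled.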
